A study of Homo sapiens with 6 samples.

Results

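HCC827-GR was compared with HCC827, the parental lung adenocarcinoma line with an activating deletion (labelled E19Del) in EGFR, the receptor for epidermal growth factor. HCC827-GR was derived from HCC827 by growth in gradually rising gefitinib, an inhibitor of the EGFR kinase, over 90 days, and is labelled resistant; HCC827 is labelled nontreated and sensitive, and both carry the deletion by their labels. Both were grown in RPMI-1640 with 10% fetal bovine serum, and polyadenylated RNA was sequenced from 1 library of each, which are 2 of the 6 libraries of the study. The other libraries are PC9, also a deletion line, with its gefitinib-resistant PC9-GR, and H1975 with H1975-OR, which is resistant to another drug, osimertinib. Over the 3 lines of the study the labels give ranges of the inhibitory concentration (IC50), not split by line or drug. They are 4.288 to 12.485 µM for resistant cells and 0.016 to 0.07 µM for parental cells. The labels leave unsaid whether HCC827-GR is a clone or a mixed population and whether gefitinib was present at harvest. With 1 library a state, no p-value is given, intervals cover counting error only, and a difference between the states cannot be told apart from a difference between these cultures.

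Of 21463 genes in the files, 10192 had at least 10 exon reads per 1000000 exon reads (CPM) in either library, and these are the measured genes described here. Ratios are log2 values of (CPM + 1) in HCC827-GR over (CPM + 1) in HCC827, and a gene is called higher or lower at 2-fold or more. CPM are not divided by gene length, so they are compared between libraries and not between genes. The libraries held 29366085 exon reads in HCC827-GR and 28140012 in HCC827, which puts 3 reads, the limit that a count of 0 allows, at 0.102 CPM in HCC827-GR and 0.107 CPM in HCC827. Mitochondrially encoded genes took 6.62% of exon reads in HCC827-GR and 3.32% in HCC827, and the 10 most abundant genes took 9.00% in HCC827-GR and 6.85% in HCC827. Reads across exon junctions made up 53.8% of nuclear exon reads in HCC827-GR and 57.4% in HCC827.

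EGFR signals through the RAS-ERK and PI3K pathways, and lung cancers with an activating EGFR mutation depend on it for growth. Resistance to EGFR inhibitors is known to arise through second mutations of the kinase, through other receptor kinases such as MET and AXL, and with a change of cell state called epithelial-mesenchymal transition. In that transition, cells lose the junctions and surface proteins of an epithelium and take on cadherins, intermediate filaments and matrix proteins of mesenchymal cells. The repressors ZEB1, ZEB2, SNAI1 and SNAI2 bind E-box sequences in the promoters of epithelial genes such as CDH1.

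Exon reads were 2-fold or more higher in HCC827-GR for 943 genes (9.25% of those measured) and lower for 941 (9.23%), with a median over all measured genes of -0.11. A 16-fold difference was passed by 71 genes higher (0.697%) and 94 genes lower (0.922%). Over 11482 genes, log2 CPM of HCC827-GR and HCC827 had a Pearson correlation of 0.847, against 0.971 between PC9-GR and PC9 and 0.960 between H1975-OR and H1975. These correlations are across genes and are given as a description. Scaling by TMM moved the median of all genes to -0.01, so list medians below are read against the median of all genes.

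Epithelial markers were present in both libraries. The 6 epithelial markers CDH1, EPCAM, KRT7, KRT8, KRT18 and KRT19 summed to 4743 CPM in HCC827-GR and 13031 CPM in HCC827, and 5 of them reached 10 CPM in HCC827-GR and 6 in HCC827. The 5 alveolar markers NKX2-1, SFTPB, SFTPC, NAPSA and SFTA2 summed to 139 CPM in HCC827-GR and 509 CPM in HCC827. Of these, NKX2-1, the lineage factor of lung epithelium, had 110 CPM in HCC827-GR and 137 CPM in HCC827. NAPSA had 26.3 CPM in HCC827-GR and 282 CPM in HCC827, and SFTA2 had 2.96 CPM in HCC827-GR and 86.9 CPM in HCC827. The airway secretory markers SCGB1A1, MUC5B and AGR2 summed to 0.511 CPM in HCC827-GR and 211 CPM in HCC827. Fibroblast markers were low in both libraries: COL1A1, COL1A2, DCN, LUM and PDGFRB summed to 20.7 CPM in HCC827-GR and 21.2 CPM in HCC827, nearly all of it COL1A1 at 17.8 CPM in HCC827-GR and 19.6 CPM in HCC827. Leukocyte markers summed to 1.16 CPM in HCC827-GR and 1.14 CPM in HCC827, and endothelial markers to 0.817 CPM in HCC827-GR and 0.782 CPM in HCC827.

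**Figure D1:**
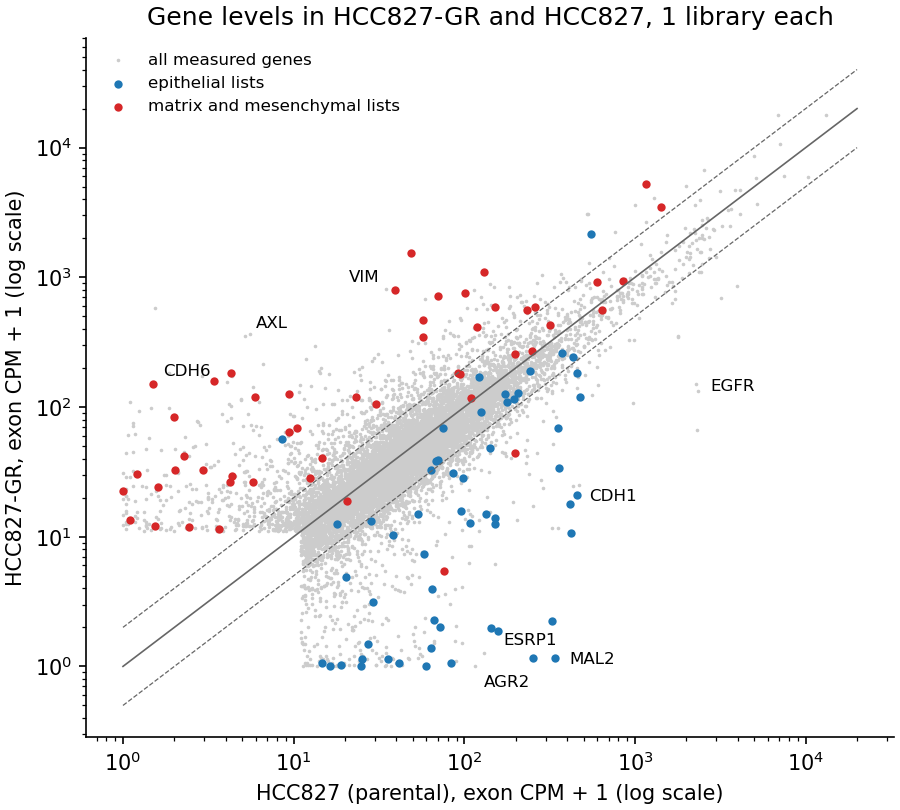
Each point is 1 measured gene, with its exon CPM + 1 in HCC827 on the x axis and in HCC827-GR on the y axis, both on log scales. The solid line marks equal levels and the dashed lines 2-fold differences. Genes of the epithelial lists (blue) lie mostly below the lines, and genes of the matrix and mesenchymal lists (red) mostly above them.

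EGFR itself was among the most reduced genes. EGFR (ENSG00000146648, chr7:55019021-55211628, hg38) had 3857 exon reads in HCC827-GR and 65401 in HCC827, which is 131 CPM in HCC827-GR against 2324 CPM in HCC827 and a log2 ratio of -4.13. Its intron reads were 680 in HCC827-GR and 6971 in HCC827, a log2 ratio of -3.35. In the other libraries EGFR had 834 CPM in PC9-GR and 921 CPM in PC9, and 236 CPM in H1975-OR and 432 CPM in H1975. HCC827 was thus the highest of the 6 libraries for EGFR and HCC827-GR the lowest.

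The genes next to EGFR on the short arm of chromosome 7 were also low in HCC827-GR. From COBL to CHCHD2 (chr7:51016212-56106576, 5.09 Mb, bounds set after the values were seen), 12 of 12 measured genes were lower by 2-fold or more in exon reads, with log2 ratios from -5.12 to -1.74 and a median of -2.68. In intron reads 12 of 12 were lower too, from -7.18 to -1.61. No measured gene lay between COBL and SEC61G, so the length of 5.09 Mb rests on COBL alone. The other low genes, EGFR among them, lie closer together, from SEC61G to CHCHD2. Whether the low stretch is unbroken between COBL and SEC61G cannot be read from these genes. SEC61G, a subunit of the channel that takes proteins into the endoplasmic reticulum, had 65.4 CPM in HCC827-GR and 2317 CPM in HCC827. LANCL2, a relative of bacterial lanthionine synthetases, had 24.2 CPM in HCC827-GR and 466 CPM in HCC827. VOPP1, on the other side of EGFR from SEC61G, had 150 CPM in HCC827-GR and 2274 CPM in HCC827. SEC61G, LANCL2 and VOPP1, the measured genes closest to EGFR, had log2 ratios of -5.12, -4.21 and -3.91, beside -4.13 for EGFR.

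Farther along, the difference was smaller. CHCHD2, a mitochondrial protein that also acts as a transcription factor, had 347 CPM in HCC827-GR and 1779 CPM in HCC827 (log2 ratio -2.36). CCT6A, a subunit of the cytosolic chaperonin, had 349 CPM in HCC827-GR and 1775 CPM in HCC827 (-2.34). PSPH, the last enzyme of serine synthesis, had 19.2 CPM in HCC827-GR and 134 CPM in HCC827 (-2.74). The next measured gene outside these bounds was GRB10 on one side, with a log2 ratio of 0.19. On the other side it was ZNF736, 9.29 Mb from EGFR, with 0.30. Genes beyond GRB10 went both ways, with UPP1 at -1.03 and IGFBP3 at -1.44 but IGFBP1 at 3.02. Past ZNF736, every measured gene within 20 Mb of EGFR was below 0 except KCTD7, CLIP2 and GTF2IRD1. Among the low ones were ZNF680 at -1.04, ZNF138 at -1.29, ASL at -1.40 and ABHD11 at -2.70. COBL, which nucleates actin filaments, stood apart within the stretch with 4 reads in HCC827-GR and 1042 in HCC827, and it was also near 0 in H1975-OR, at 0.381 CPM against 52.0 CPM in H1975. SEC61G had 231 CPM in PC9-GR and 172 CPM in PC9, and 101 CPM in H1975-OR and 149 CPM in H1975, all far under its level in HCC827. Gene copies were not measured here, so copy number and transcription cannot be told apart.

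**Figure D2:**
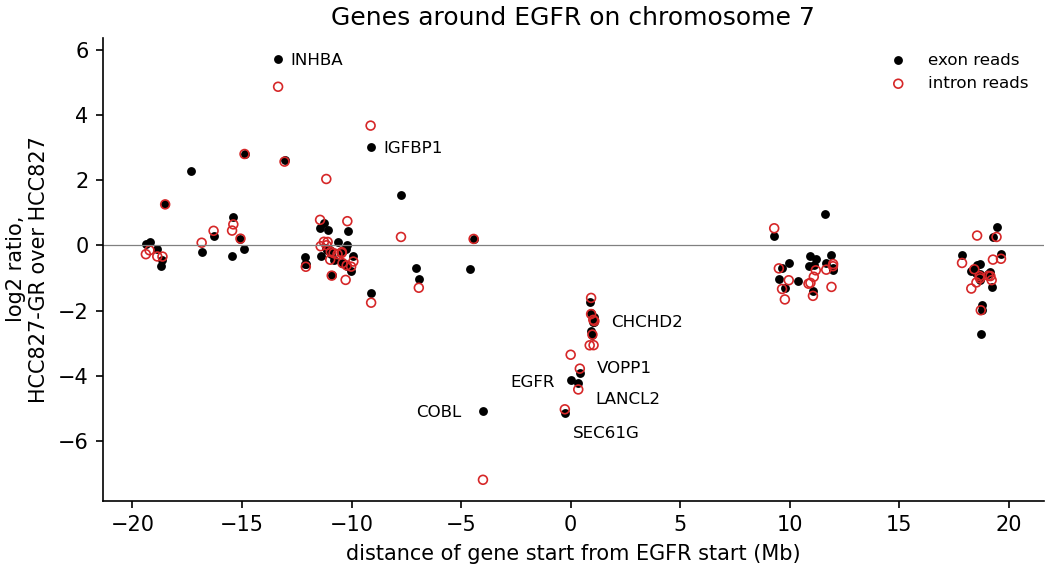
Log2 ratios of HCC827-GR over HCC827 on the y axis for measured genes within 20 Mb of EGFR, against the distance of each gene's start from the start of EGFR in megabases, for exon reads (filled) and intron reads (open). The genes from COBL to CHCHD2 lie between -5.12 and -1.74 in exon reads. Genes before COBL lie on both sides of 0, and genes past CHCHD2 lie mostly below it.

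Median ratios also differed between whole chromosomes. On chromosome 2 the median was -0.63 in exon reads and -0.57 in intron reads, with 24.4% of 659 measured genes lower and 5.31% higher. On chromosome 7 it was -0.54 and -0.55, with 22.4% of 482 genes lower, and on chromosome 14 it was -0.41 in both kinds of read. Chromosome 6 had the highest median, 0.32 in exon reads and 0.29 in intron reads, with 17.2% of 513 genes higher and 5.07% lower, followed by chromosome 20 at 0.22 and 0.13. The exon medians of the other chromosomes lay between -0.25 and 0.07. Exon and intron reads gave the same order for the extremes, which are 2 kinds of read from the same 2 libraries.

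**Figure D3:**
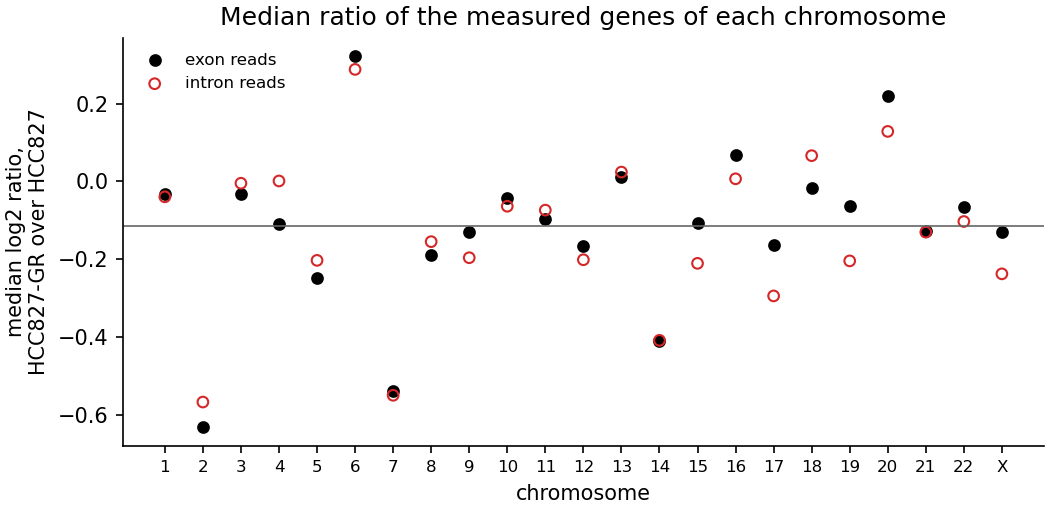
Median log2 ratio of HCC827-GR over HCC827 on the y axis for the measured genes of each chromosome (x axis), in exon reads (filled) and intron reads (open), with the median of all measured genes as a line. Chromosomes 2, 7 and 14 lie lowest, at -0.63, -0.54 and -0.41 in exon reads, and chromosomes 6 and 20 highest, at 0.32 and 0.22.

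In runs of 25 neighbouring measured genes, the lowest median, -1.44, was that of the run on chromosome 7 that ends with the genes beside EGFR (ZMIZ2 to CHCHD2). The next, with a median of -1.06 in exon reads and -1.09 in intron reads, lay on the long arm of chromosome 7 (BUD23 to RSBN1L, chr7:73683025-77783022), where 13 of 25 genes were lower and 0 higher. It held POR, the electron donor of cytochromes P450, at -1.93, and the small heat shock protein HSPB1 at -1.56. The highest run, with a median of 0.68 in exon reads and 0.80 in intron reads, lay on the long arm of chromosome 6 (CNKSR3 to QKI, chr6:154387504-163578596). There 8 of 25 genes were higher and 0 lower, among them QKI, an RNA-binding splicing regulator, at 1.79 and IGF2R, the receptor that clears IGF2, at 1.72. A run on chromosome 1 (ROR1 to SLC44A5, chr1:63774022-75611116) had a median of 0.67 and included the cytokine kinase JAK1 at 1.56. A run on chromosome 20 (SERINC3 to ELMO2, chr20:44496221-46432985) had a median of 0.64 and included the syndecan SDC4 at 1.53.

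Ligands and partners of EGFR were lower in part. TGFA, an EGFR ligand, had 1 read in HCC827-GR and 491 in HCC827. AREG, another ligand, had 12.5 CPM in HCC827-GR and 203 CPM in HCC827 (log2 ratio -3.92), and EREG had 115 CPM in HCC827-GR and 220 CPM in HCC827 (-0.93). HBEGF, a ligand that also binds heparin, was higher, at 49.4 CPM in HCC827-GR against 8.49 CPM in HCC827 (2.41), as was NRG1, a ligand of ERBB3 and ERBB4, at 84.6 CPM in HCC827-GR against 40.9 CPM in HCC827 (1.03). Of 6 measured ligands 2 were higher and 3 lower. ERBB3 had 10.2 CPM in HCC827-GR and 96.6 CPM in HCC827 (-3.13), though only 51.2% of its reads mapped uniquely, and ERBB2 had 116 CPM in HCC827-GR and 181 CPM in HCC827 (-0.64).

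Among 19 other receptor tyrosine kinases measured, 9 were higher and 3 lower in exon reads, with a median of 0.51. In intron reads 5 of 18 were higher and 5 lower, with a median of 0.26. Over all 8398 genes measured in intron reads, 7.86% were higher and 11.0% lower. AXL, the receptor for GAS6, had 10327 reads in HCC827-GR and 118 in HCC827, which is 352 CPM in HCC827-GR against 4.19 CPM in HCC827 (log2 ratio 6.09; intron reads 4.14). FGFR1, a receptor for fibroblast growth factors, had 75.7 CPM in HCC827-GR and 1.74 CPM in HCC827 (4.81; intron reads 4.56). KIT, the receptor for stem cell factor, had 10.6 CPM in HCC827-GR and 0.249 CPM in HCC827. The insulin and insulin-like growth factor receptors were higher in exon reads, INSR at 41.5 CPM in HCC827-GR and 11.1 CPM in HCC827, and IGF1R at 94.1 CPM in HCC827-GR and 31.1 CPM in HCC827, but the intron log2 ratio of IGF1R was 0.11. MET, whose amplification is a known route of resistance in this line, was lower, at 199 CPM in HCC827-GR and 458 CPM in HCC827 (-1.20; intron reads -1.38). MST1R, the other member of the MET family, had 2.93 CPM in HCC827-GR and 38.2 CPM in HCC827. Of 15 measured ligands of receptor tyrosine kinases, some of whose receptors were under the level for measured genes, 9 were higher and 0 lower, with a median of 1.43. In intron reads 5 of 13 were higher and 2 lower, with a median of 0.68. The absence of lower ligands in exon reads depended on the minimum: at 1 CPM or more, 11 of 20 were higher and 2 lower. The lower ones included HGF, the ligand of MET, at 0.0341 CPM in HCC827-GR and 6.72 CPM in HCC827. The AXL ligand GAS6 had 47.4 CPM in HCC827-GR and 9.20 CPM in HCC827, and FGF2 had 50.6 CPM in HCC827-GR and 8.28 CPM in HCC827, with 7.56% of FGF2 reads unique.

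Of 20 measured genes that ERK signalling induces, 3 were higher and 9 lower, with a median of -0.50. The median turned with the minimum. It was 0.03 for the 10 genes at 50 CPM or more and -1.16 for the 24 at 1 CPM or more. In intron reads 1 of 8 was higher and 1 lower. These are too few genes to set apart from the 7.86% higher and 11.0% lower over all genes measured in intron reads. EGR1, an immediate early transcription factor, had 0.579 CPM in HCC827-GR and 65.2 CPM in HCC827 (-5.39). DUSP6, the phosphatase that switches ERK off, had 0.443 CPM in HCC827-GR and 50.1 CPM in HCC827 (-5.15). The AP-1 subunits did not move together: FOSL2 had 575 CPM in HCC827-GR and 103 CPM in HCC827 (2.48), JUN 238 CPM in HCC827-GR and 76.7 CPM in HCC827 (1.62), and JUNB had a log2 ratio of -1.84. The sprouty feedback inhibitors SPRY1 and SPRY2 had log2 ratios of -0.52 and -0.49. Their relative SPRY4, at 0.136 CPM in HCC827-GR and 7.14 CPM in HCC827, was under the level for measured genes.

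**Figure D4:**
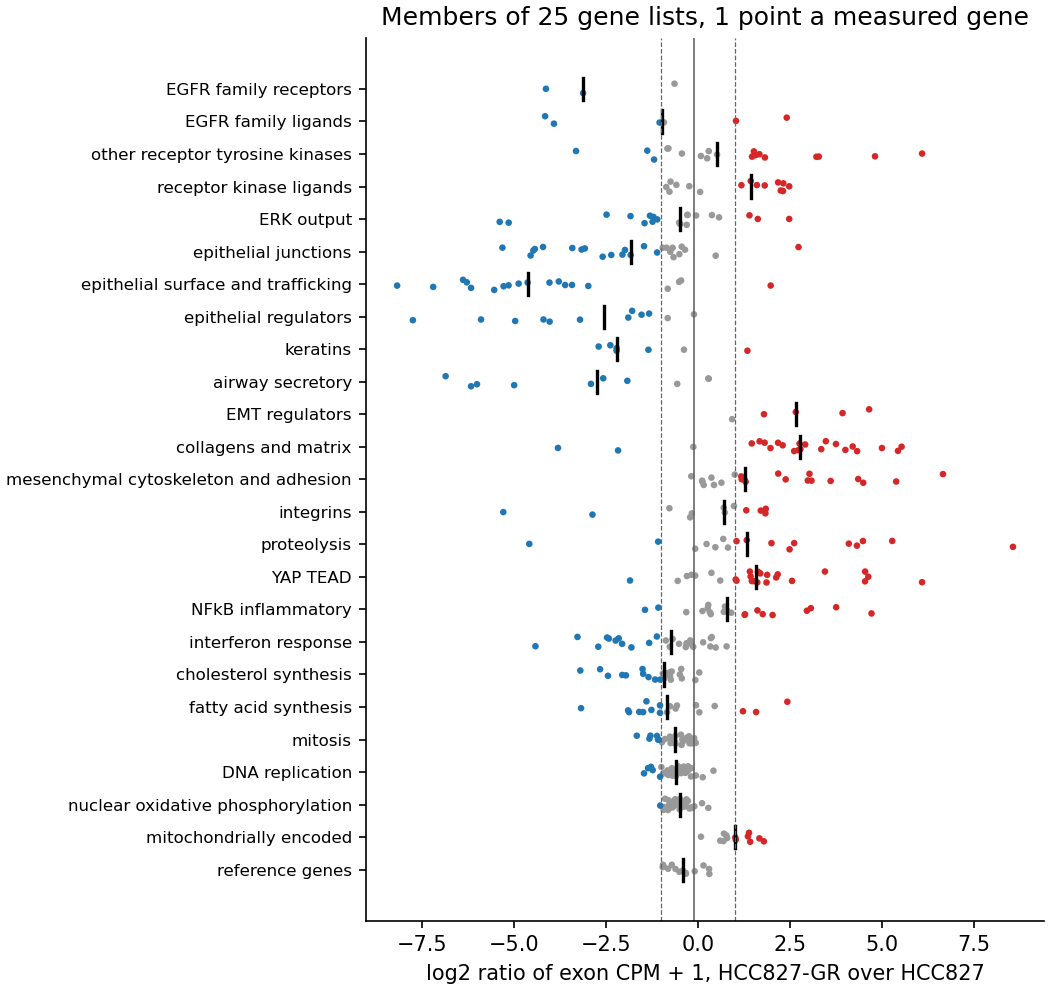
Log2 ratios of HCC827-GR over HCC827 (x axis) for the measured members of 25 gene lists (rows), 1 point a gene, with the list median as a black bar, the median of all genes as a solid line and 2-fold differences as dashed lines. The epithelial lists have medians from -4.63 to -1.83, and the matrix list has a median of 2.76.

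Epithelial genes were low across junctions, surface proteins and regulators. Of 25 measured junction genes, 15 were lower and 1 higher, with a median of -1.83 in exon reads and -2.49 in intron reads. The loss was not even over the junction: CDH1, the cadherin of adherens junctions, had 20.1 CPM in HCC827-GR and 455 CPM in HCC827 (-4.44), and EPCAM had 9.60 CPM in HCC827-GR and 422 CPM in HCC827 (-5.32). CLDN7, a tight junction claudin, had 32.8 CPM in HCC827-GR and 360 CPM in HCC827 (-3.42). Other junction genes differed less or the other way: the desmosomal plaque protein DSP had a log2 ratio of -0.45, the scaffold TJP1 0.48 and the claudin CLDN1 -0.51, all within 2-fold, and the desmosomal cadherin DSC3 was higher, at 55.5 CPM in HCC827-GR against 7.53 CPM in HCC827.

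Of 19 measured epithelial surface and trafficking genes, 15 were lower and 1 higher, with a median of -4.63. MAL2, a carrier of proteins to the apical membrane, had 5 reads in HCC827-GR and 9509 in HCC827, which is 1985-fold lower (95% Clopper-Pearson interval 850.1 to 6114). That fold is of exon reads, and MAL2 ranked 3 among genes whose exon ratio lay farthest below their intron ratio. ST14, the membrane protease matriptase, had 1.23 CPM in HCC827-GR and 326 CPM in HCC827. AP1M2, the epithelial adaptor subunit that sorts proteins to the basolateral membrane, had 0.885 CPM in HCC827-GR and 157 CPM in HCC827. The exception was CD24, a surface sialoglycoprotein, which had 2154 CPM in HCC827-GR and 549 CPM in HCC827 (1.97).

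Of 12 measured epithelial regulators, 10 were lower and 0 higher. ESRP1, which directs epithelial splicing, had 5 reads in HCC827-GR and 7061 in HCC827. GRHL2, a transcription factor of epithelial genes, had 0 reads in HCC827-GR and 1650 in HCC827, at least 574-fold lower against the limit of 3 reads. OVOL1, a repressor of mesenchymal genes, had 0 reads in HCC827-GR and 433 in HCC827, at least 151-fold lower. Against these stood 4 of 5 measured transition regulators that were higher. ZEB2 had 29.4 CPM in HCC827-GR and 0.213 CPM in HCC827 (4.65; intron reads 3.98), ZEB1 had 23.4 CPM in HCC827-GR and 0.604 CPM in HCC827 (3.92), and SNAI2 had 25.6 CPM in HCC827-GR and 3.23 CPM in HCC827 (2.65). SNAI1, at 1.98 CPM in HCC827-GR and 5.97 CPM in HCC827, was under the level for measured genes, as was TWIST1 with 28 reads in HCC827-GR and 0 in HCC827.

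The E-box bound by ZEB and SNAI proteins, CACCTG or its reverse complement CAGGTG, was looked for on both strands in RefSeq promoters (GRCh38.p14, 250 bases before to 50 after the start). It was present in 20.6% of all 27305 promoters of the table and in 17.9% of the 8214 measured genes with a promoter there. Among genes 2-fold or more lower in HCC827-GR it was present in 27.8% of 699, and among those higher in 16.7% of 725. Of the measured epithelial genes of the 3 lists, 33 of 56 had a promoter in the table and 15 of these held the motif (45.5%). The share was 10 of 23 among the epithelial genes lower in HCC827-GR (43.5%) and 5 of 10 among those not lower, so within these lists the motif was not more frequent in the lower genes. The 5 most reduced of them with a match upstream of the start are shown because they carry the letters within 90 bases, read 5′ to 3′ on the strand of the gene with the motif in capitals, and these letters say nothing about binding in these cells. The windows are chr19:10587313-10587402 (minus strand) for AP1M2, chr1:155192950-155193039 (minus) for MUC1, chr1:156061070-156061159 (plus) for RAB25, chr6:36130349-36130438 (plus) for MAPK13 and chr18:50195226-50195315 (minus) for MYO5B.
AP1M2: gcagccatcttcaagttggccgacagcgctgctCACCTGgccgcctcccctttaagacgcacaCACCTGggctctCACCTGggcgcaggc
MUC1: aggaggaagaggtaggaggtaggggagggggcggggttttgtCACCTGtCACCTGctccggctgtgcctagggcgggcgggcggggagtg
RAB25: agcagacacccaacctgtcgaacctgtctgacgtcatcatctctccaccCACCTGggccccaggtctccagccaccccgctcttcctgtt
MAPK13: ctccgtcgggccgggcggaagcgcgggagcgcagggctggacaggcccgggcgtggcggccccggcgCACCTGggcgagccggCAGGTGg
MYO5B: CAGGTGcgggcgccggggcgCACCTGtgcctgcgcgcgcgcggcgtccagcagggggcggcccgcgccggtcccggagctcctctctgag

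The 5 genes were chosen for their low ratios, and their levels are given as a description. MUC1, a membrane mucin, had 0.988 CPM in HCC827-GR and 142 CPM in HCC827 (-6.17), and RAB25, a GTPase of apical recycling, had 0.0681 CPM in HCC827-GR and 40.7 CPM in HCC827 (-5.29). MAPK13, a p38 kinase, had 1.26 CPM in HCC827-GR and 65.4 CPM in HCC827 (-4.88), while its intron log2 ratio was -1.85. MYO5B, a motor of apical vesicles, had 2.93 CPM in HCC827-GR and 63.5 CPM in HCC827 (-4.04). Secretory genes of the airway were also low, 7 of 10 measured, among them AGR2, a disulfide isomerase for mucins, with 0 reads in HCC827-GR and 3241 in HCC827, at least 1127-fold lower. MUC5B, a secreted mucin, had 0.511 CPM in HCC827-GR and 96.2 CPM in HCC827. Of the alveolar genes, 2 of 9 measured were higher and 3 lower; NAPSA, an aspartic protease of surfactant processing, had 26.3 CPM in HCC827-GR and 282 CPM in HCC827.

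Mesenchymal and matrix genes were the counterpart. Of 22 measured genes of the mesenchymal cytoskeleton and adhesion, 14 were higher and 0 lower, with a median of 1.28 in exon reads and 0.71 in intron reads. The cadherin CDH6 had 4395 reads in HCC827-GR and 14 in HCC827, a 301-fold ratio of CPM (95% interval 179.1 to 550.7), and the neural cadherin CDH2 had 82.1 CPM in HCC827-GR and 0.995 CPM in HCC827. VIM, the intermediate filament of mesenchymal cells, had 797 CPM in HCC827-GR and 38.1 CPM in HCC827 (4.35; intron reads 4.61). Among measured keratins 5 of 7 were lower and 1 higher. Not all of them are keratins of simple epithelia, as KRT16 at -2.70 and KRT80 at 1.34 are not. Of the simple keratins, KRT8 had 857 CPM in HCC827-GR and 3980 CPM in HCC827, and KRT18 had 687 CPM in HCC827-GR and 3195 CPM in HCC827. KRT7, also a simple keratin, had 2493 CPM in HCC827-GR and 3254 CPM in HCC827. KRT8 and KRT18 overlap at their ends in the annotation, so their reads may be mixed. Simple keratins and VIM were both above 10 CPM in HCC827-GR and in HCC827.

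Of 23 measured collagens and matrix genes, 20 were higher and 2 lower, with a median of 2.76. COL5A1, a fibrillar collagen chain, had 157 CPM in HCC827-GR and 2.42 CPM in HCC827 (5.53). COL12A1, a collagen of fibril surfaces, had 183 CPM in HCC827-GR and 3.27 CPM in HCC827 (5.43). FBN1, the fibrillin of microfibrils, had 118 CPM in HCC827-GR and 4.98 CPM in HCC827 (4.32). FN1, fibronectin, had 414 CPM in HCC827-GR and 118 CPM in HCC827 (1.81), with an intron log2 ratio of 0.49. The chief fibroblast collagen chain COL1A1 was no part of this, with a log2 ratio of -0.13. The 2 lower genes were COL17A1, a hemidesmosome collagen, at 4.39 CPM in HCC827-GR and 74.5 CPM in HCC827, and TNC, tenascin-C, at 42.8 CPM in HCC827-GR and 197 CPM in HCC827.

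Laminins and integrins differed among themselves. Of 8 measured laminins and their linkers 2 were higher and 2 lower. The chain LAMB3 had a log2 ratio of -1.26, while the chain LAMB2 (1.24) and the linker NID1 (2.56) were higher. Of 12 integrin subunits 4 were higher and 2 lower, with a median of 0.71 in exon reads and -0.37 in intron reads. ITGB6, the subunit of the epithelial integrin that activates TGF-beta, had 0.375 CPM in HCC827-GR and 52.9 CPM in HCC827 (-5.29). ITGA2, a collagen receptor subunit, had 9.57 CPM in HCC827-GR and 76.3 CPM in HCC827 (-2.87). The fibronectin receptor subunits ITGA5 and ITGB1 had log2 ratios of 1.70 and 1.84, with 59.6% of ITGB1 reads unique.

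Of 17 measured proteolysis genes, 10 were higher and 2 lower. PLAU, the urokinase that activates plasminogen, had 838 CPM in HCC827-GR and 334 CPM in HCC827 (1.32), whereas its receptor PLAUR had 19.9 CPM in HCC827-GR and 43.4 CPM in HCC827 (-1.09). ADAMTS1, a matrix protease, had 156 CPM in HCC827-GR and 3.06 CPM in HCC827. TFPI2, a protease inhibitor, had 0.272 CPM in HCC827-GR and 29.6 CPM in HCC827. It lies in a further run of low genes on chromosome 7 (DBF4 to PEG10), with a median of -1.05 in exon reads and -0.56 in intron reads.

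YAP and TEAD are transcription regulators that respond to cell stretch and density. Of 26 measured members of their list, which holds YAP1, WWTR1 and the TEAD factors beside targets and partners, 19 were higher and 1 lower, with a median of 1.56 in exon reads and 0.97 in intron reads. It shares AXL, TGFB2, F3 and NT5E with other lists. CTGF had 113 CPM in HCC827-GR and 3.91 CPM in HCC827 (4.54), ANKRD1 142 CPM in HCC827-GR and 4.80 CPM in HCC827 (4.62), and CYR61 3053 CPM in HCC827-GR and 520 CPM in HCC827 (2.55). YAP1 itself had a log2 ratio of -0.08, and its relative WWTR1 had 1.61. In the TGF-beta pathway 7 of 19 were higher and 1 lower. INHBA, an activin subunit, had 96.7 CPM in HCC827-GR and 0.853 CPM in HCC827 (5.72), while ID1, a target of the BMP branch, had 22.9 CPM in HCC827-GR and 289 CPM in HCC827 (-3.60). WNT5A, a ligand of the non-canonical Wnt pathway, had 24.2 CPM in HCC827-GR and 0.782 CPM in HCC827.

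Inflammatory genes that passed 2-fold were mostly higher, and interferon genes that did were lower. Of 21 measured NF-kB and inflammatory genes 9 were higher and 2 lower, with a median of 0.78. The chemokine CXCL8 had 146 CPM in HCC827-GR and 9.95 CPM in HCC827 (3.75), CCL2 28.0 CPM in HCC827-GR and 0.107 CPM in HCC827 (4.71), and the cytokine IL6 38.2 CPM in HCC827-GR and 4.05 CPM in HCC827 (2.96). Of 26 interferon-response genes 0 were higher and 11 lower, with a median of -0.73; at a minimum of 50 CPM, 7 of them were left, 1 lower, with a median of -0.13. BST2, which tethers virus particles, had 3.81 CPM in HCC827-GR and 45.7 CPM in HCC827 (-3.28), and OAS1, an RNA sensor, had 1.87 CPM in HCC827-GR and 17.8 CPM in HCC827 (-2.71). Other interferon genes were within 2-fold, such as IFIT1 at -0.18 and STAT2 at 0.77.

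Lipid synthesis was lower in part. Of 23 cholesterol genes 0 were higher and 10 lower, with a median of -0.92 in exon reads and -1.11 in intron reads. INSIG1, which holds the sterol sensor in the endoplasmic reticulum, had 14.4 CPM in HCC827-GR and 140 CPM in HCC827 (-3.20). FDFT1, squalene synthase, had 50.9 CPM in HCC827-GR and 328 CPM in HCC827 (-2.66). Not every enzyme differed, as HMGCS1 had 89.4 CPM in HCC827-GR and 87.5 CPM in HCC827. Of 19 fatty acid genes 3 were higher and 9 lower; the desaturase SCD had 106 CPM in HCC827-GR and 971 CPM in HCC827 (-3.18), and its paralog SCD5 had 12.6 CPM in HCC827-GR and 1.53 CPM in HCC827 (2.42).

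Genes of drug handling were mixed. ABCB1, the efflux pump P-glycoprotein, had 1405 reads in HCC827-GR and 44 in HCC827, which is 47.8 CPM in HCC827-GR against 1.56 CPM in HCC827, and 0 reads in the other 4 libraries. ABCC2, another efflux pump, had 3.10 CPM in HCC827-GR and 95.5 CPM in HCC827 (-4.56). Of 10 transporters 5 were higher and 2 lower in exon reads, and 2 were higher and 3 lower in intron reads. Over all genes measured in intron reads, 7.86% were higher and 11.0% lower. ALDH1A1, an aldehyde dehydrogenase used as a marker of stem-like cells, had 919 reads in HCC827-GR and 4 in HCC827 (4.82). Of 25 measured genes of the list for the oxidative stress factor NRF2, which includes its own gene NFE2L2 and its inhibitor KEAP1, 1 was higher and 8 lower; the quinone reductase NQO1 had 23.7 CPM in HCC827-GR and 434 CPM in HCC827 (-4.14), while GCLM had a log2 ratio of -0.06. The metallothioneins MT2A, at 791 CPM in HCC827-GR and 112 CPM in HCC827, and MT1X, at 62.8 CPM in HCC827-GR and 7.85 CPM in HCC827, were higher.

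Most genes of cell division were within 2-fold. Of 30 mitotic genes 0 were higher and 6 lower, with a median of -0.63, and of 35 replication genes 0 were higher and 5 lower, with a median of -0.59, beside 9.23% lower among all measured genes. Under TMM scaling 4 mitotic and 4 replication genes were lower. The 15 reference genes, none of which passed 2-fold, had a median of -0.42. The spindle checkpoint kinase BUB1 had 43.5 CPM in HCC827-GR and 140 CPM in HCC827 (-1.67), and cyclin B1, CCNB1, had 156 CPM in HCC827-GR and 391 CPM in HCC827 (-1.32). CDK6, a kinase of the G1 phase, was higher at 133 CPM in HCC827-GR against 61.8 CPM in HCC827 (1.10). Of 33 nuclear subunits of the respiratory chain 0 were higher and 1 lower (median -0.50), and of 13 mitochondrially encoded genes 7 were higher and 0 lower (median 1.01), beside the larger mitochondrial share of reads in HCC827-GR. In glycolysis 1 of 22 was higher and 3 lower, with the hexokinase HK2 at -1.76 and the glucose transporter SLC2A1 at 1.42. The p53 target, BCL2 and unfolded protein response lists had medians of -0.10, -0.04 and -0.06, whose sign turned with the scaling.

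Other genes with large ratios belong to none of the groups above. TENM2, a teneurin of cell-cell contact, had 182 CPM in HCC827-GR and 0.853 CPM in HCC827 (6.62). It ranked 4 among genes whose exon ratio lay farthest above their intron ratio. The glypican GPC4 had 109 CPM in HCC827-GR and 0.107 CPM in HCC827 (6.63). MME, the membrane peptidase neprilysin, had 92.1 CPM in HCC827-GR and 0.249 CPM in HCC827 (6.22), and DYSF, dysferlin of membrane repair, had 366 CPM in HCC827-GR and 4.51 CPM in HCC827 (6.06). IGFBP7, a secreted binding protein, had 1754 reads in HCC827-GR and 2 in HCC827, a ratio of CPM of 840 (95% interval 232.3 to 6945). On the low side, ADGRF1, an adhesion G protein-coupled receptor, had a log2 ratio of -6.68, and GALNT3, an enzyme that starts mucin-type sugar chains, -6.33.

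Intron reads are taken to come mostly from RNA not yet spliced. They were counted in the same libraries, so they give a second reading of each gene that shares its source with the first. The intron counts also hold reads for all 13 mitochondrially encoded genes, which have no introns, so not all come from unspliced RNA. These genes were kept in the values below. Intron reads made up 5.70% of gene reads in HCC827-GR and 5.96% in HCC827. Of the measured genes, 8398 had at least 20 intron reads per 1000000 intron reads in either library. In these, intron reads were 2-fold or more higher for 660 genes (7.86%) and lower for 922 (11.0%), and exon reads were higher for 760 (9.05%) and lower for 747 (8.89%). The log2 ratios of exon and intron reads had a Pearson correlation of 0.864 and a Spearman correlation of 0.732 across these genes.

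Most genes that differed in exon reads differed in intron reads in the same direction. Of the 760 higher in exon reads, 490 (64.5%) were also 2-fold or more higher in intron reads, 722 had the same sign and 4 were 2-fold or more lower. Of the 747 lower in exon reads, 524 (70.1%) were also lower in intron reads, 734 had the same sign and 1 was higher. The median of the genes higher in exon reads was 1.64 in exon reads and 1.31 in intron reads, and that of the genes lower in exon reads was -1.38 in both. A further 170 genes were higher and 398 lower in intron reads alone.

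Some genes differed between the 2 kinds of read. ZEB1 had an exon log2 ratio of 3.92 and an intron ratio of 0.87, from 65 intron reads in HCC827-GR and 35 in HCC827. ADAMTSL4, a matrix protein that binds fibrillin, had 4.70 in exon reads and 0.72 in intron reads. BCAM, a laminin receptor, had -0.27 in exon reads and -3.44 in intron reads. In the other direction, MBNL3, a splicing regulator, had 1 exon read in HCC827-GR and 306 in HCC827, but 105 intron reads in HCC827-GR and 75 in HCC827. IFI27, an interferon-induced mitochondrial protein, had an exon ratio of -4.42 and an intron ratio of -0.88, from 112 intron reads in HCC827-GR and 209 in HCC827. DDAH1, an enzyme that breaks down methylarginines, had 0.69 in exon reads and 3.14 in intron reads, from 3568 intron reads in HCC827-GR and 405 in HCC827. Intron reads of an overlapping gene cannot be told apart from a gene's own, since no source used here says whether counting used strand.

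**Figure D5:**
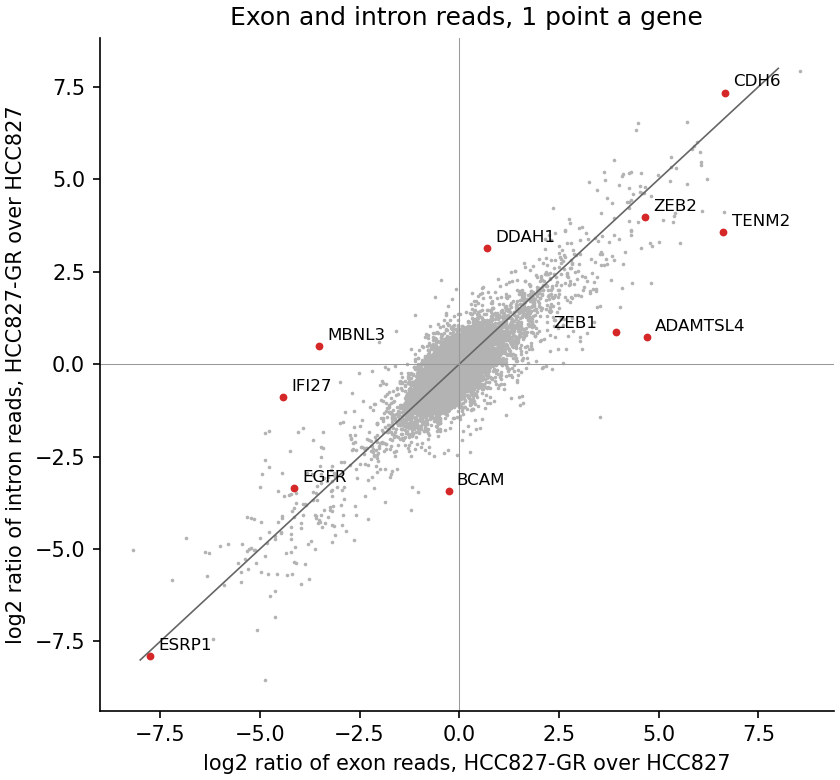
Each point is 1 of 8398 genes, with the log2 ratio of HCC827-GR over HCC827 in exon reads on the x axis and in intron reads on the y axis, and the diagonal marks equal ratios. Most genes follow the diagonal; ZEB1 and ADAMTSL4 lie below it and MBNL3, IFI27 and DDAH1 above it.

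The genes higher and lower in HCC827-GR differed in length. The median exon length was 5047 bases for the 943 genes higher, 3460 bases for the 941 genes lower and 4196 bases for all measured genes, and the median span in the genome was 58.5 kb, 31.2 kb and 34.1 kb. In PC9, 62.8% of the genes higher reached 10 CPM, against 79.6% of the genes lower and 87.2% of all measured genes. In H1975 the order of the first 2 groups turned, at 73.4% of the genes higher, 69.3% of the genes lower and 89.6% of all measured genes. Genes were measured if they reached 10 CPM in either library of the HCC827 pair, so a gene that differs may have passed in its higher library only. The shares in PC9 and H1975 may therefore depend in part on that minimum, which was not tested. The lengths and shares are descriptions of the gene sets with no test.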

How the data were processed

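RNA was extracted with GENEzol and stranded poly(A) libraries were made with the TruSeq kit, per the labels' protocols. Trimmomatic, Bowtie2 and hg38 are named in the submitters' processing notes, without role; no source used here names the counting tool, the annotation or the use of strand. The authors deposited, per the file headers, raw counts of exon, exon-junction and intron reads per gene, total and unique. Per the file headers they also deposited TPM, used here only as an alternative scaling. The table of the whole series was not used.

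Total exon reads were scaled to their library total (CPM) and intron reads to the total of intron reads, and 1 was added before log2. Genes with 10 CPM in either library were measured; the lowest level kept was 10.01 CPM and the highest left out 9.99 CPM. Intron ratios needed 20 reads per 1000000 intron reads in either library. Exact Clopper-Pearson 95% intervals and the floor of 3 reads cover counting error only. TMM and relative log expression factors came from edgeR 4.0.16 over the 6 libraries (R 4.3.3); other steps used Python 3.11.15, pandas 2.3.3 and numpy 2.4.6, with scripts checked on simulated counts. The 48 gene lists hold 952 genes, of which 951 were matched and 685 measured.

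Named genes are those with the 20 highest and lowest ratios (at least 80% unique reads), up to 6 members of a list with the largest ratios, the 10 largest exon-intron differences in each direction, and members of the 3 highest and lowest runs; genes within 2-fold were named to show the spread of a list. The gene set, the lists and the named genes were chosen with earlier results of these data known; a few genes that the rule takes are not reported here.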

Additional observations from a re-analysis of the deposited data

Results flagged for a closer look

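AXL moved opposite ways in the HCC827 and H1975 pairs, each of 1 library a state, and the difference between the pairs was not tested. H1975-OR is resistant to osimertinib and HCC827-GR to gefitinib, so the pairs differ in both line and drug, which cannot be told apart. AXL had a log2 ratio of 6.09 in HCC827-GR over HCC827 and of -1.18 in H1975-OR over H1975, with 37.6 CPM in H1975-OR and 86.3 CPM in H1975.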

How the results depend on the processing

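No paired analysis was possible because each state has 1 library. With 943 genes higher and 941 lower in HCC827-GR as reported, TMM scaling gave 1082 and 783, relative log expression 1090 and 776, leaving out mitochondrial genes from the total 1011 and 862, the authors' TPM 927 and 867, unique reads 916 and 907, and adding 0.25 CPM in place of 1 gave 975 and 991. The share of genes called that were higher was 50.1% as reported and 50.2% to 58.4% under these other scalings and unique reads. Raising the minimum to 50 CPM left 514 genes higher and 384 lower of 4884, and lowering it to 1 CPM gave 1271 and 1375. For intron reads, a minimum of 100 reads per 1000000 gave 326 higher and 309 lower, with 75.1% of the genes lower in exon reads also lower in intron reads; scaling intron reads by the exon total gave 60.1% of genes higher in exon reads also higher in intron reads, and 73.5% for genes lower. Of the genes called, 57.2% were higher at the minimum of 50 CPM and 48.0% at 1 CPM. A higher minimum also tests fewer genes, and the source of the smaller counts was not tested. From COBL to CHCHD2, 10 to 12 genes were lower under every setting. Of 5364 values of named genes under the alternatives, 0 reversed and 1073 moved by more than counting error. List medians that changed sign with the scaling were those of p53 targets, the BCL2 family and the unfolded protein response. Depth limits genes near 0 reads, where ratios have wide intervals.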
